A study of Saccharomyces cerevisiae with 37 samples.

Results

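The genes described here are the 10 that take sulfate into budding yeast (Saccharomyces cerevisiae) and reduce it to sulfide and beyond: SUL1 (YBR294W), SUL2 (YLR092W), MET3 (YJR010W), MET14 (YKL001C), MET16 (YPR167C), MET5 (YJR137C), MET10 (YFR030W), MET1 (YKR069W), MET8 (YBR213W) and MET17 (YLR303W). They were taken by name from a table of 6464 genes. Their levels come from 37 libraries of 3′-end RNA sequencing (Lexogen QuantSeq) in 2 strains. The 25xGFA1 strain carries a 25x array of GFA1, the gene of the first enzyme of the hexosamine pathway, driven by the copper-responsive CUP1 promoter according to the design text. The WT strain has no array. Both strains are labelled haploid MAT A in the BY4741 background. Cells were grown in rich medium (YPD), washed and moved to minimal medium free of copper for some 2 h. The methionine content of that medium is not stated. A 0 min sample was taken, copper sulfate was added, and samples followed every 5 min up to 30 min and then at 45 and 60 min. The 25xGFA1 strain (BMY3661) had 2 libraries at each of the 9 times, 18 in all. WT (BMY1051) had 2 at each time and 1 more at 0 min, 19 in all. The treatment note gives the copper as 500 uM and the growth note gives 500 mM; the unit was not settled. Every later sample had copper, so the effects of copper and of further time in the new medium cannot be told apart. Whether the 25xGFA1 replicates were separate isolates is not stated.

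Sulfate assimilation supplies the sulfur of cysteine, methionine, S-adenosylmethionine and glutathione. Sulfate enters through permeases, is activated with ATP to adenylyl sulfate (APS) and phosphoadenylyl sulfate (PAPS), and is reduced to sulfite and then to sulfide, which is joined to O-acetylhomoserine to give homocysteine. In yeast the genes are known as targets of the activator Met4, which reaches DNA through Cbf1 or through Met31 and Met32, and organic sulfur sources such as methionine are known to lower their expression. BY4741 lacks MET17, the gene of the last of these steps, and is a methionine auxotroph.

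Gene counts per library ran from 305028 to 887971, with a median of 577369. The members' counts summed to between 143 and 434 in a library. Levels are given in CPM, the count relative to the TMM-scaled library size. Where counts are summed over libraries and given a counting interval, CPM is relative to the summed gene counts without that scaling. Since 3′-end counts are not scaled by length, levels are compared within a gene only. Called means an adjusted p under 0.05 in edgeR's quasi-likelihood test, adjusted by Benjamini-Hochberg over all 4995 genes tested. GFA1 averaged 20850 ± 764 CPM in 25xGFA1 and 226 ± 69.4 CPM in WT at 30 min (SD, n = 2 each). The MATa marker genes MFA1, MFA2, STE2, BAR1, STE6 and AGA2 summed to 1306 to 2827 CPM in 25xGFA1 libraries, against 165 to 486 CPM in WT libraries. All 6 of them were higher in 25xGFA1, both at 0 min and after copper. The MATalpha genes MF(ALPHA)1 and MF(ALPHA)2 had 1 count each in the whole table, and STE3 had 11. The remaining MATalpha marker, SAG1, had 292 counts in 25xGFA1 libraries and 283 in WT libraries. LEU2, deleted in BY4741, had 5863 counts in 25xGFA1 libraries and 13 in WT libraries. URA3, also deleted there, had 0 counts in every library, and HIS3, which carries a deletion allele in BY4741, had 1093 counts in 25xGFA1 and 1321 in WT. The strains therefore differed in more than GFA1, and the part these differences have in any strain result below was not tested. The WT 0 min library of replicate 1 was the shallowest and stood apart from its replicates. Its counts differed from those of replicate 3 by a chi-square of 35.2 per degree of freedom and from those of replicate 2 by 30.1. WT 0 min replicates 2 and 3 differed from each other by 8.49. The pairs of replicates outside WT 0 min gave 1.37 to 10.8. The highest of these was the WT pair at 25 min, and the next was 4.32, the WT pair at 10 min.

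Before the levels, the promoters show what the members have in common. The Cbf1 site CACGTG lay within 500 bases before the start codon of 9 of the 10 genes, SUL1 being the exception, and 6.23% of 6000 yeast promoters of that length held it. The site reads the same on both strands. It was present as 2 copies before SUL2, MET3, MET5 and MET10. The Met31 and Met32 core AAACTGTG, searched on both strands, was found before MET3, MET1 and MET17, and in 2.7% of all promoters. The Gcn4 site TGACTC, searched likewise, was found before SUL1, MET16 and MET5, and in 12.65% of all promoters. Stretches around these sites are printed for the 5 members that passed a test below. They are read from build R64 along the gene's strand, 5′ to 3′, with the matched sites in capitals. They lie at chrXII:323200-323251 (SUL2, plus strand), chrXI:439598-439623 (MET14, minus strand), chrXVI:877765-877820 (MET16, minus strand), chrVI:213053-213096 (MET10, plus strand) and chrXI:571334-571403 (MET1, plus strand), all upstream of the coding sequence.
SUL2: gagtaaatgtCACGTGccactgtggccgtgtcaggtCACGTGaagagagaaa
MET14: ccactaatttCACGTGatcaatatat
MET16: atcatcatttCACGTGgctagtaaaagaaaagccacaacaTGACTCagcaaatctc
MET10: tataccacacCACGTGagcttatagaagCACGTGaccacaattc
MET1: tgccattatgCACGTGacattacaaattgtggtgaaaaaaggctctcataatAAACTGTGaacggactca
SUL2 and MET10 carry the Cbf1 site as a pair, MET14 carries it once, MET16 carries it with a Gcn4 site downstream, and MET1 carries it with a Met31 and Met32 core downstream. A match is a description of letters, not a measured binding site.

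Of the 10 members, 8 passed the filter on low counts and were tested; SUL1 and MET17 did not. MET17, also known as MET15 or MET25 and coding for O-acetylhomoserine sulfhydrylase, had 2 counts over the 18 25xGFA1 libraries and 1 count over the 19 WT libraries. Over all times that is 0.199 CPM (95% counting interval 0.0240 to 0.718) in 25xGFA1 and 0.0929 CPM (0.00235 to 0.518) in WT. It was at 0 in 34 of the 37 libraries, and its deletion is part of the BY4741 background. The first 12 bases of its annotated gene overlap YLR302C on the other strand.

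SUL1, one of the 2 high-affinity sulfate permeases, had 110 counts in all and a median of 3 per library. Summed over libraries, it had 12 counts at 0 min, 8 at 25 to 30 min and 20 at 45 to 60 min in 25xGFA1. In WT it had 8, 8 and 23 counts at those times. The WT sum at 45 to 60 min came to 11.6 CPM (95% counting interval 7.36 to 17.4), against 4.38 CPM (1.89 to 8.64) at 0 min. The 25xGFA1 sum at 45 to 60 min came to 9.35 CPM (5.71 to 14.4), against 9.38 CPM (4.84 to 16.4) at 0 min. These intervals overlap in both strains and cover counting error only. At 25 to 30 min the WT sum came to 3.53 CPM (1.52 to 6.95), an interval apart from that at 45 to 60 min. The 25xGFA1 sum came to 4.44 CPM (1.92 to 8.75) at 25 to 30 min, which overlaps. From that window to 45 to 60 min, WT had a log2 fold change of 1.58 (SE 0.64, adjusted p = 0.138) without the filter, not called. In a fit with no filter, SUL1 had a log2 fold change of 1.31 (SE 0.66, adjusted p = 0.491) in WT at 45 to 60 min against 0 min, and of -0.09 (SE 0.64, adjusted p = 1) in 25xGFA1.

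MET3 codes for ATP sulfurylase, which makes APS, and MET8 codes for the enzyme that turns the MET1 product into siroheme. Both passed the filter, with medians of 6 and 5 counts per library, and neither was called in any of the 14 comparisons. MET3 ran from 3.67 to 25.3 CPM in 25xGFA1 libraries and from 0 to 24.3 CPM in WT libraries. MET8 ran from 3.62 to 23.1 CPM in 25xGFA1 libraries and from 3.26 to 26.6 CPM in WT libraries. At these counts the SE of a log2 fold change against 0 min was 0.56 to 0.70, so a 2-fold change (a log2 value of 1) was under 2 SE.

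**Figure D1:**
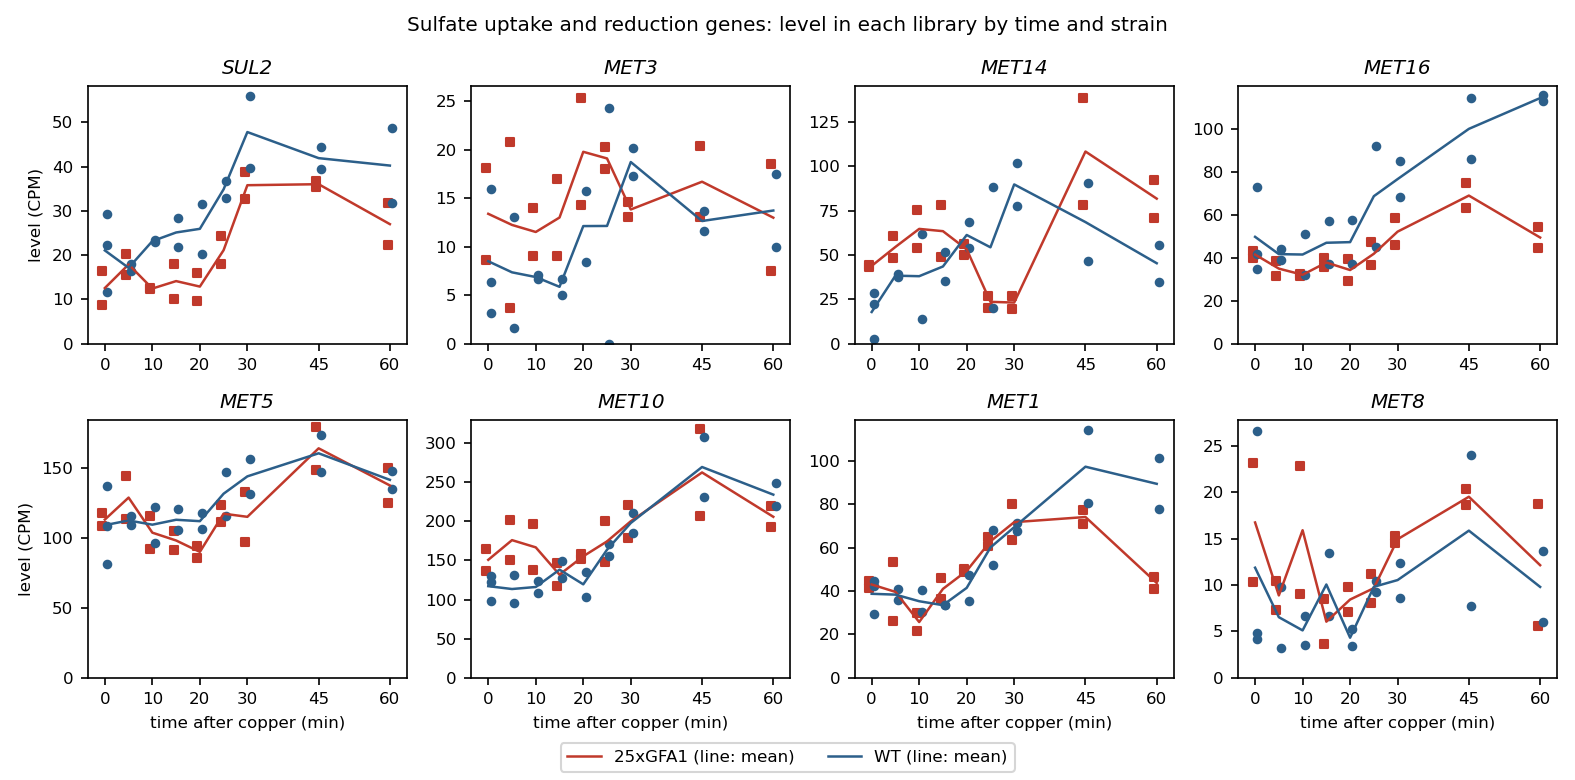
Level (CPM) of the 8 tested genes against time after copper in min; squares are 25xGFA1 libraries, circles are WT libraries and lines join the means at each time. MET16 lies between 85.7 and 115.5 CPM in the 4 WT libraries at 45 to 60 min and at or under 74.5 CPM in 25xGFA1, and MET14 lies at 19.7 to 26.95 CPM in 25xGFA1 at 25 to 30 min.

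In WT cells, tested members with roles from sulfate uptake to sulfite reduction were called higher against 0 min at 25 to 30 and at 45 to 60 min. Which of them were called depended on the libraries fitted, as given below. At 25 to 30 min against 0 min, 4 of the 8 tested members were called, all higher, where 10.2% of all genes were called. These 4 were SUL2 (the other high-affinity sulfate permease), MET14 (APS kinase), MET10 (a subunit of sulfite reductase) and MET1 (a methyltransferase of siroheme synthesis). Later, at 45 to 60 min against 0 min, 3 of 8 were called, all higher, where 1.58% of all genes were called: MET10, MET1 and MET16 (PAPS reductase). All 8 fold changes were above 0 in both comparisons. The median log2 fold change of the 8 was 0.66 at 25 to 30 min and 1.05 at 45 to 60 min, against 0.00 and -0.04 over all genes tested. At 10 to 20 min against 0 min, edgeR called none of the 8, 1 had an unadjusted p under 0.05, and 13.6% of all genes were called. DESeq2 called 1 there, MET14. In bulk RNA, a higher level in each cell and more cells with a high level cannot be told apart.

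MET10, whose product is the flavin-carrying subunit of sulfite reductase, had 130.3, 123 and 98.3 CPM in the WT libraries at 0 min. It had 171, 156, 185 and 211 CPM at 25 to 30 min, and 231, 307, 219 and 249 CPM at 45 to 60 min. These 3 windows did not overlap. Against 0 min its log2 fold change was 0.64 (SE 0.19, 1.55-fold, adjusted p = 0.0298) at 25 to 30 min and 1.12 (SE 0.19, 2.17-fold, adjusted p = 0.00171) at 45 to 60 min.

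MET1 converts uroporphyrinogen III toward siroheme, the cofactor of sulfite reductase. It had 29.2, 44.7 and 42.3 CPM in WT at 0 min. It had 68.1, 52.05, 71.4 and 67.5 CPM at 25 to 30 min, and 80.5, 114, 77.6 and 101 CPM at 45 to 60 min. Again the 3 windows did not overlap. MET1 had a log2 fold change against 0 min of 0.69 (SE 0.21, 1.61-fold, adjusted p = 0.0362) at 25 to 30 min and of 1.22 (SE 0.21, 2.33-fold, adjusted p = 0.00171) at 45 to 60 min.

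MET16, which reduces PAPS to sulfite, had 34.6, 41.5 and 72.9 CPM in WT at 0 min, replicate 3 being the high one. It had 92.05, 45.1, 68.3 and 84.8 CPM at 25 to 30 min, which overlaps 0 min. By 45 to 60 min it had 85.7, 114, 115.5 and 113 CPM, above every library at 0 min. Its log2 fold change against 0 min was 0.45 (SE 0.25, adjusted p = 0.276) at 25 to 30 min, not called, and 1.02 (SE 0.24, 2.02-fold, adjusted p = 0.0241) at 45 to 60 min.

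SUL2 had 29.2, 22.35 and 11.6 CPM in WT at 0 min. It had 36.8, 33.0, 55.9 and 39.8 CPM at 25 to 30 min, and 39.4, 44.5, 31.85 and 48.7 CPM at 45 to 60 min. Each later library was above all 3 at 0 min, by little for the lowest. SUL2 had a log2 fold change against 0 min of 1.08 at both windows (SE 0.29 each, 2.11-fold and 2.12-fold), with an adjusted p of 0.0147 at 25 to 30 min and of 0.0529, not called, at 45 to 60 min.

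MET14, which phosphorylates APS to PAPS, had 2.66, 28.7 and 22.2 CPM in WT at 0 min; the lowest value is 1 count in the library of replicate 1 that stood apart. It had 20.25, 88.5, 77.6 and 102 CPM at 25 to 30 min, the low value coming from replicate 1 at 25 min. It had 90.8, 46.4, 55.7 and 35.0 CPM at 45 to 60 min. MET14 had a log2 fold change against 0 min of 1.22 (SE 0.45, adjusted p = 0.0676) at 10 to 20 min, of 1.80 (SE 0.46, 3.48-fold, adjusted p = 0.0108) at 25 to 30 min and of 1.48 (SE 0.47, adjusted p = 0.131) at 45 to 60 min. Only the middle one was called. Without the WT 0 min library of replicate 1, the call at 25 to 30 min held at 1.48 (SE 0.43, adjusted p = 0.0192).

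MET5, the other subunit of sulfite reductase, had smaller changes. It ran from 81.4 to 137 CPM at 0 min and from 135 to 174 CPM at 45 to 60 min in WT. Its log2 fold change was 0.48 (SE 0.17, adjusted p = 0.197), not called.

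None of the 4 calls at 25 to 30 min, and none of the 3 at 45 to 60 min, was made without WT culture 2. That fit left 1 library at each WT time after 0 min. In the earlier window no member was called without either 25xGFA1 culture or with WT libraries alone. At 45 to 60 min MET16 lost its call in those fits (adjusted p = 0.249 with WT libraries alone). Fewer genes of all kinds were called with WT libraries alone, 216 at 25 to 30 min and 14 at 45 to 60 min, against 510 and 79. The 25xGFA1 libraries enter these comparisons only through the shared estimate of spread, the scaling and the filter on low counts, which sets the genes tested. Without the WT 0 min library of replicate 3, MET10 (adjusted p = 0.115), SUL2 (adjusted p = 0.115) and MET1 (adjusted p = 0.0525) lost their calls at 25 to 30 min. MET1 also lost its call there without that of replicate 1 (adjusted p = 0.0725), without WT culture 1 (adjusted p = 0.29), without the filter (adjusted p = 0.0545) and in DESeq2 (adjusted p = 0.088), and MET16 lost its call at 45 to 60 min without that of replicate 2 (adjusted p = 0.0744). With culture as a block, in which WT replicate 3 carries no weight, MET10 (adjusted p = 0.0596) and SUL2 (adjusted p = 0.113) were not called at 25 to 30 min and MET16 was (log2 fold change 0.87, adjusted p = 0.0374).

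**Figure D2:**
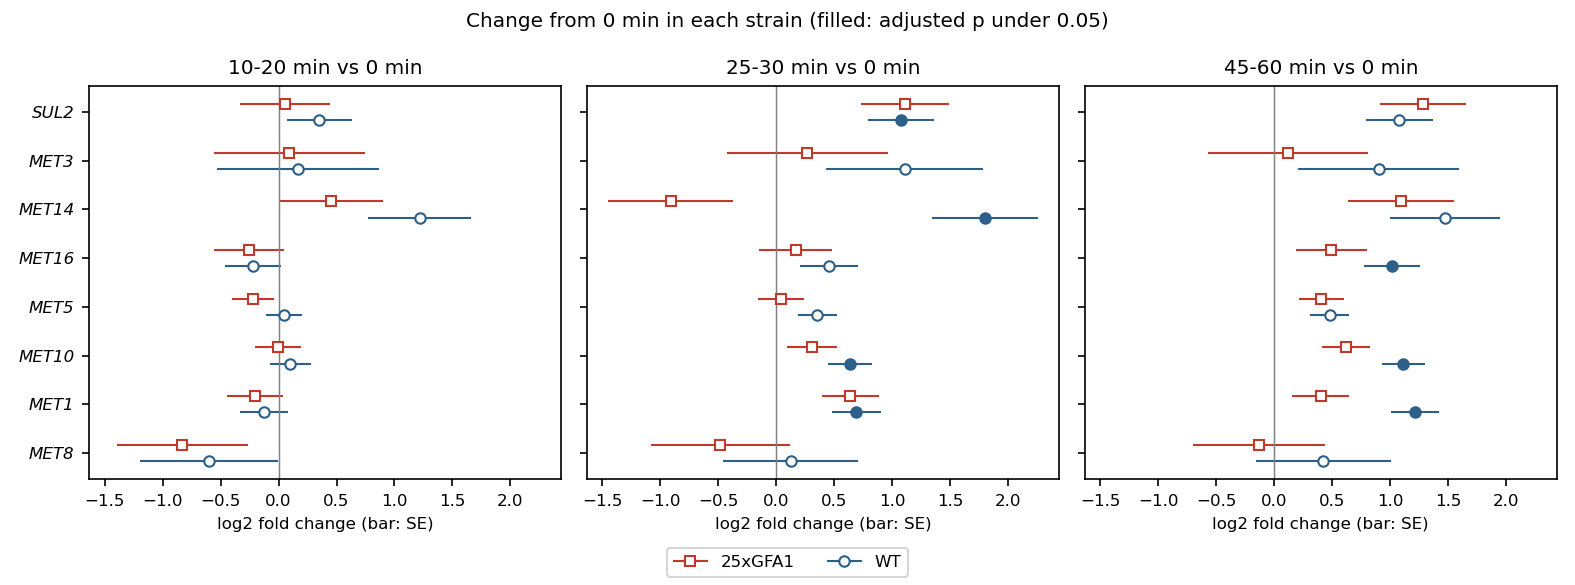
Log2 fold change against 0 min of the 8 tested genes, with SE as bars, in 3 windows of time; squares are 25xGFA1, circles are WT, and filled symbols have an adjusted p under 0.05. All filled symbols belong to WT, 4 at 25 to 30 min and 3 at 45 to 60 min, and MET14 lies at -0.91 in 25xGFA1 and 1.80 in WT at 25 to 30 min.

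Comparisons within WT that used no 0 min library had no member called by edgeR or DESeq2. Between 25 to 30 min and 5 min in WT, all 8 members were above 0, 4 had an unadjusted p under 0.05, their median log2 fold change was 0.77, and 1.0% of all genes were called. SUL2 was nearest, with a log2 fold change of 1.24 (SE 0.33, adjusted p = 0.0695), and was called with culture as a block (adjusted p = 0.0265). Between 45 to 60 min and 25 to 30 min in WT, 6 of the 8 were above 0 with a median of 0.21, 3 had an unadjusted p under 0.05, and 10.4% of all genes were called. MET14 (-0.32, SE 0.37) and MET3 (-0.20, SE 0.57) were below 0 and SUL2 was at 0.01 (SE 0.23). MET1 (0.53, SE 0.18, adjusted p = 0.0614), MET10 (0.48, SE 0.17, adjusted p = 0.066) and MET16 (0.56, SE 0.22, adjusted p = 0.0995) were nearest. With culture as a block MET10 (adjusted p = 0.0194) and MET16 (adjusted p = 0.0444) were called. MET10, MET1 and MET16 had their highest WT means at 45, 45 and 60 min, and MET14 and SUL2 at 30 min.

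In 25xGFA1 cells, no member was called against 0 min. At 10 to 20 min 0 of 8 had an unadjusted p under 0.05, at 25 to 30 min 2 and at 45 to 60 min 4, and DESeq2 called none in any of the 3. The shares of all genes called were 0.0601%, 2.14% and 0.18%. The median log2 fold change of the 8 members was -0.10 at 10 to 20 min, 0.22 at 25 to 30 min and 0.45 at 45 to 60 min, against 0.02, 0.00 and -0.02 over all genes. Fitted on the 25xGFA1 libraries alone, 3 members were called at 25 to 30 min (SUL2, MET1 and, lower, MET14) and 2 at 45 to 60 min (SUL2 and MET14), and 1285 and 154 genes were called in all. With culture as a block no member was called, and 29, 349 and 29 genes were called in the 3 windows.

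SUL2 had 16.5 and 8.64 CPM in 25xGFA1 at 0 min. It had 24.3, 18.0, 38.8 and 32.8 CPM at 25 to 30 min, and 36.7, 35.4, 22.2 and 31.8 CPM at 45 to 60 min, all above both 0 min libraries. Its log2 fold change against 0 min was 1.11 (SE 0.38, adjusted p = 0.0962) and then 1.29 (SE 0.37, adjusted p = 0.232), where WT had 1.08 at both windows. The later value was 0.81 (adjusted p = 1) without 25xGFA1 culture 2 and 1.97 (adjusted p = 1) without culture 1. Without the WT 0 min library of replicate 1 it was called at 25 to 30 min (adjusted p = 0.0372).

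MET10 had 165 and 137 CPM in 25xGFA1 at 0 min and 318, 207, 192.5 and 219 CPM at 45 to 60 min, a log2 fold change of 0.62 (SE 0.21, adjusted p = 0.394), not called. MET1 had 44.55 and 41.5 CPM at 0 min, 60.7, 65.1, 80.1 and 63.4 CPM at 25 to 30 min, and 77.45, 70.8, 46.3 and 41.2 CPM at 45 to 60 min. Its libraries at 45 min were above 0 min and those at 60 min overlapped it. Its log2 fold change was 0.64 (SE 0.25, adjusted p = 0.138) at 25 to 30 min and 0.40 (SE 0.25, adjusted p = 0.901) at 45 to 60 min.

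MET16 had 39.6 and 43.2 CPM in 25xGFA1 at 0 min and 63.2, 74.5, 44.4 and 54.3 CPM at 45 to 60 min, a log2 fold change of 0.49 (SE 0.31, adjusted p = 0.901). MET5 ran from 109 to 118 CPM at 0 min and from 125 to 179 CPM at 45 to 60 min, a log2 fold change of 0.41 (SE 0.19, adjusted p = 0.762). In 25xGFA1, 7 of the 8 tested members had their highest mean at 45 min, MET3 being the exception at 20 min.

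MET14 had its lowest mean in 25xGFA1 in the window of 25 to 30 min and its highest in that of 45 to 60 min. It had 44.55 and 43.2 CPM at 0 min, 48.6 and 60.6 CPM at 5 min, and a lowest, median and highest of 48.9, 55.35 and 78.1 CPM at 10 to 20 min. It then had 20.25, 26.95, 26.7 and 19.7 CPM at 25 to 30 min, which are 10, 12, 11 and 9 counts, and 139, 78.25, 92.5 and 71.1 CPM at 45 to 60 min. All 4 libraries at 25 to 30 min were lower than every other 25xGFA1 library, and all 4 at 45 to 60 min were above every library at 0 to 5 min. Between 45 to 60 min and 25 to 30 min MET14 rose by a log2 fold change of 2.00 (SE 0.42, 4.01-fold, adjusted p = 0.0301). It was the 1 member of 8 called in that comparison, where 0.601% of all genes were called. The lower level before that was not called, with a log2 fold change of -0.91 (SE 0.54, adjusted p = 0.321) against 0 min and of -1.22 (SE 0.52, adjusted p = 0.206) against 5 min. Against 5 min, at 25 to 30 min, edgeR and DESeq2 called 0 of the 8 members, 2 had an unadjusted p under 0.05, and 0.761% of all genes were called. Without 25xGFA1 replicate 1 or 2 the rise was 1.71 (adjusted p = 1) or 2.30 (adjusted p = 0.902), with 1 library left at each time, and no gene of any kind was called.

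**Figure D3:**
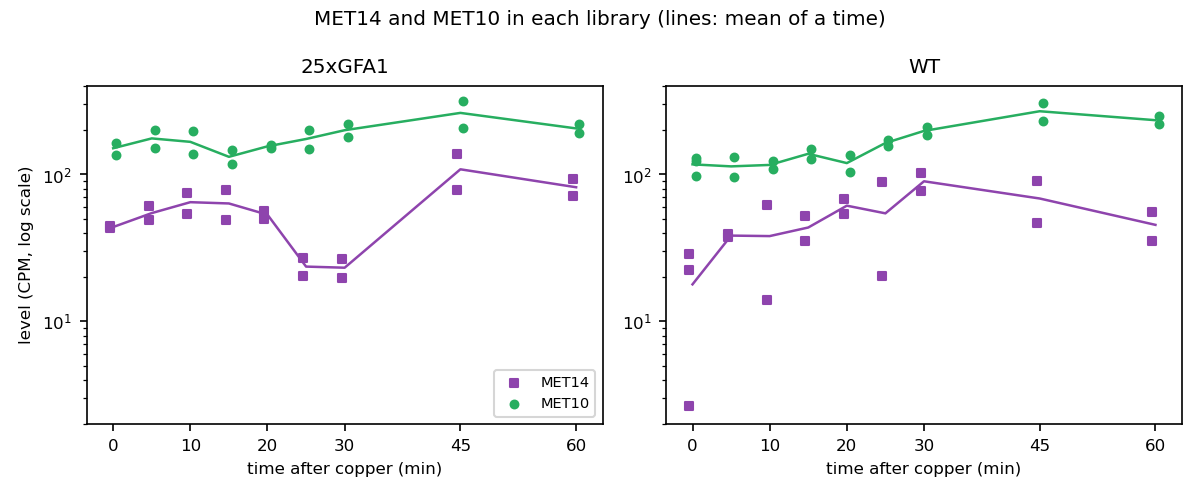
Level (CPM, log scale) of MET14 (squares) and MET10 (circles) against time after copper in min in 25xGFA1 (left) and WT (right), one symbol per library, with lines through the means. In 25xGFA1, MET14 has means of 23.6 CPM at 25 min and 23.2 CPM at 30 min and stands at 108 CPM at 45 min, while MET10 stays between means of 132 and 262 CPM; in WT, MET14 has its highest mean, 89.8 CPM, at 30 min.

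In WT the 4 libraries at 25 to 30 min had 20.25, 88.5, 77.6 and 102 CPM of MET14, so that 3 of the 4 lay above all 25xGFA1 libraries of that window. The change from 5 min to 25 to 30 min differed between the strains by a log2 value of -2.09 (25xGFA1 minus WT, SE 0.71, unadjusted p = 0.00653), with an adjusted p of 0.689. MET10 had -0.58 (SE 0.30, adjusted p = 0.695) in the same test. In that test edgeR called none of the 8 members and 0.0% of all genes, 1 member and 353 genes had an unadjusted p under 0.05, and DESeq2 called 0 genes. For the change from 0 min to the mean after copper, edgeR again called no member and 0.0% of all genes, 0 members and 539 genes had an unadjusted p under 0.05, and DESeq2 called 1 gene, not a member. MET14 had -1.13 there (SE 0.59, adjusted p = 0.475). In these 2 tests a difference between the strains in the change was not detectable for any tested member at this depth and number of cultures; the change to 45 to 60 min was not tested between the strains.

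Between the strains, MET16 and SUL2 were lower in 25xGFA1 over the 8 times after copper. They were 2 of the 8 members called there, where 23.9% of all genes were called, a share close to that of the members. The median log2 difference of the 8 (25xGFA1 minus WT) was -0.06, against 0.00 over all genes. At 0 min none of the 8 was called by edgeR or DESeq2, none had an unadjusted p under 0.05, and 3.44% of all genes were called.

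MET16 had a lowest, median and highest level of 29.2, 39.5 and 74.5 CPM in the 16 25xGFA1 libraries after copper, against 31.9, 57.3 and 115.5 CPM in the 16 WT libraries. The ranges overlap as a whole and overlapped at 10 to 20 and at 25 to 30 min. The strains were narrowly apart at 5 min, at 31.25 and 38.5 CPM in 25xGFA1 and 39.1 and 44.2 CPM in WT. They were also apart at 45 to 60 min, at 44.4 to 74.5 CPM in 25xGFA1 and 85.7 to 115.5 CPM in WT. MET16's log2 difference after copper was -0.55 (SE 0.12, 0.68-fold, adjusted p = 0.00175). At 0 min MET16 had 39.6 and 43.2 CPM in 25xGFA1, within the 34.6 to 72.9 CPM of WT, and the log2 difference was -0.34 (SE 0.32, adjusted p = 0.526).

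SUL2 had a lowest, median and highest level of 9.74, 19.1 and 38.8 CPM in 25xGFA1 after copper, against 16.4, 31.7 and 55.9 CPM in WT. It was apart at 10 to 20 min, at 9.74 to 18.1 CPM in 25xGFA1 and 20.3 to 31.6 CPM in WT, and overlapped in the other windows. Its log2 difference after copper was -0.57 (SE 0.14, 0.67-fold, adjusted p = 0.00361). Before copper the difference was of like size, -0.60 (SE 0.41, adjusted p = 0.447), and the change from 0 min to the mean after copper differed between the strains by 0.03 (SE 0.41, adjusted p = 0.991) for SUL2 and by -0.20 (SE 0.34, adjusted p = 0.821) for MET16.

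The other 6 members were not called after copper. Among them MET10 had a log2 difference of 0.17 (SE 0.09, adjusted p = 0.163) and MET3 of 0.47 (SE 0.30, adjusted p = 0.275). Libraries of 1 culture share that culture at all times, and each strain had 2 cultures after 0 min, so the spread in this fit is partly within cultures. Without 25xGFA1 culture 1 MET16 was not called (adjusted p = 0.115), without culture 2 neither was (MET16 0.0568, SUL2 0.084), and without WT culture 2 SUL2 was not (adjusted p = 0.0701), with both still lower in 25xGFA1.

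**Figure D4:**
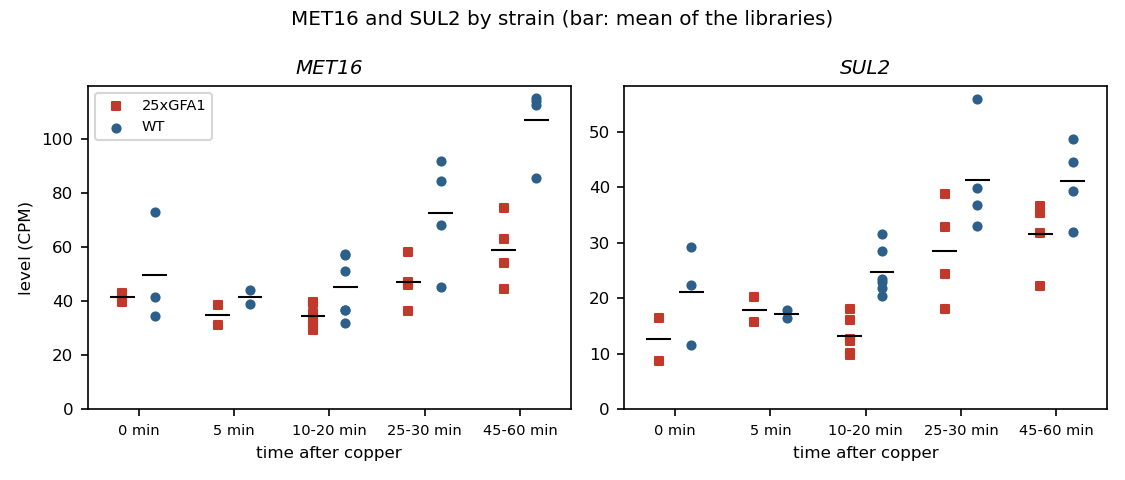
Level (CPM) of MET16 and SUL2 by window of time after copper, squares for 25xGFA1 to the left of circles for WT in each window, one symbol per library and a bar at each mean. For MET16 the 4 WT libraries at 45 to 60 min (85.7 to 115.5 CPM) lie above the 4 of 25xGFA1 (44.4 to 74.5 CPM), and for SUL2 the 6 WT libraries at 10 to 20 min (20.3 to 31.6 CPM) lie above the 6 of 25xGFA1 (9.74 to 18.1 CPM).

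Members' profiles were compared over the 9 time means of each strain, as a description in which the genes share their libraries. Pearson correlations of log2 CPM in WT were 0.97 for MET5 and MET10, the 2 subunits of sulfite reductase, 0.97 for MET16 and MET10, 0.97 for MET16 and MET1 and 0.96 for MET10 and MET1. These are among the highest WT values, and in 25xGFA1 the same pairs had 0.85, 0.82, 0.77 and 0.56. SUL2 and MET16 had 0.87 in 25xGFA1 and 0.86 in WT, and SUL2 and MET10 had 0.88 in 25xGFA1 and 0.90 in WT. With the other 7, MET3 had -0.26 to 0.66 in 25xGFA1 and 0.30 to 0.78 in WT, and MET14 had -0.30 to 0.38 in 25xGFA1 and 0.21 to 0.70 in WT. MET14 and MET1 had -0.30 in 25xGFA1 and 0.53 in WT. Against the mean of the 8 members over the 18 strain and time groups, to which each contributes, the correlation was 0.93 for MET10, 0.85 for MET5 and MET1, 0.81 for MET16, 0.77 for SUL2, 0.59 for MET8, 0.56 for MET3 and 0.55 for MET14. The 5 genes outside the set with the highest correlation were HBN1 (0.889), MMP1 (0.875), which codes for the S-methylmethionine permease, BUD9 (0.872), YNL208W (0.848) and RFU1 (0.835), each over 18 groups.

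Genes around the pathway were taken from lists of its regulators, of methionine, cysteine and S-adenosylmethionine synthesis, of other sulfur sources, of reductant supply and of glutathione. Of 7 regulators (MET4, MET28, MET31, MET32, CBF1, MET30 and GCN4), 6 were tested. No regulator was called by edgeR or DESeq2 in any of the 14 comparisons, and at most 2 of the 6 had an unadjusted p under 0.05 in 1 comparison.

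Of 9 tested genes for other sulfur sources, 4 rose in WT at 25 to 30 min against 0 min and 0 fell, with a median log2 fold change of 0.81 over the 9, where 10.2% of all genes were called. They were MUP3, a low-affinity methionine permease (1.82, SE 0.33, adjusted p = 0.000648), MUP1, the high-affinity methionine permease (0.88, SE 0.17, adjusted p = 0.000931), SAM3, the S-adenosylmethionine permease (0.94, SE 0.21, adjusted p = 0.00354), and OPT1, an oligopeptide transporter that takes up glutathione (0.81, SE 0.23, adjusted p = 0.0252). MUP1 averaged 458 ± 79.6 CPM at 25 to 30 min (SD, n = 4) and 243 ± 67.8 CPM at 0 min (n = 3) in WT. MUP1 also rose in 25xGFA1 in that window, by 0.88 (SE 0.20, adjusted p = 0.0169), averaging 395 ± 35.2 CPM (n = 4) against 215 ± 22.8 CPM at 0 min (n = 2), and in WT against 5 min (0.88, SE 0.19, adjusted p = 0.0215). MUP1 was the 1 gene of the 9 called in each of these 2 comparisons, where 2.14% and 1.0% of all genes were called. MUP3 had risen in WT by 10 to 20 min (1.15, SE 0.32, adjusted p = 0.0188). It was the 1 gene of the 9 called there, a share near the 13.6% of all genes called. OPT1 was not called with culture as a block (adjusted p = 0.0513) or without the WT 0 min library of replicate 1 (adjusted p = 0.0554) or 3 (adjusted p = 0.09). Fitted on WT libraries alone, MUP1 and MUP3 kept their calls at 25 to 30 min against 0 min, and SAM3 (adjusted p = 0.0562) and OPT1 (adjusted p = 0.106) did not. Without WT culture 2, MUP3 (adjusted p = 0.0621) and OPT1 (adjusted p = 0.126) were not called, and without any 1 of the 25xGFA1 cultures or 0 min libraries MUP1 was not called in 25xGFA1 (adjusted p = 0.201 to 0.885). The calls of MUP3 at 10 to 20 min and of MUP1 against 5 min were lost with WT libraries alone (adjusted p = 0.105 and 0.291), without WT culture 2 (0.193 and 0.775) and without 25xGFA1 culture 1 (0.11 and 0.311) or 2 (0.11 and 0.322), and that of MUP1 without WT culture 1 (0.078). Without either 25xGFA1 culture SAM3 (adjusted p = 0.0614 each) and OPT1 (adjusted p = 0.114 each) were not called.

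Of 11 tested genes of methionine, cysteine and S-adenosylmethionine synthesis, 1 was called in WT at 25 to 30 min against 0 min, a share near the 10.2% of all genes, and the median of the 11 was 0.25. The called gene was MET2, whose product makes O-acetylhomoserine, with a log2 fold change of 1.52 (SE 0.39, adjusted p = 0.0123). MET2 averaged 22.4 ± 5.92 CPM at 25 to 30 min (SD, n = 4) and 6.89 ± 3.2 CPM at 0 min (n = 3). Of 5 glutathione genes, GSH1, which codes for the first enzyme of glutathione synthesis, rose in the same comparison by 1.08 (SE 0.30, adjusted p = 0.0198) and was not called with culture as a block (adjusted p = 0.0662). MET2 and GSH1 were not called with WT libraries alone (adjusted p = 0.0702 and 0.0908), without WT culture 2 (adjusted p = 0.219 and 0.136) or without 25xGFA1 culture 1 (adjusted p = 0.0767 and 0.0934) or 2 (adjusted p = 0.0766 and 0.093), nor was GSH1 without the WT 0 min library of replicate 3 (adjusted p = 0.0959). In 25xGFA1 at 25 to 30 min, edgeR called none of the 11 synthesis genes against 0 min or against 5 min, DESeq2 called 1 in each and 2 in each had an unadjusted p under 0.05. Of the 11, 1 was above 0 against 0 min (median log2 fold change -0.32) and 2 were above 0 against 5 min (median -0.42), and 2.14% and 0.761% of all genes were called. The 2 lowest p-values, picked out after the values were seen, belonged to SAH1 and CYS4. SAH1, the S-adenosylhomocysteine hydrolase, had 63.1 to 108 CPM in the 4 25xGFA1 libraries at 25 to 30 min and 294 to 373 CPM in the 2 at 0 min, a log2 fold change of -1.95 (SE 0.56, adjusted p = 0.0624), not called. CYS4, the cystathionine beta-synthase, had 99.5 to 125.5 CPM at 25 to 30 min and 193 to 204 CPM at 0 min, a log2 fold change of -0.79 (SE 0.24, adjusted p = 0.0694), not called. At 45 to 60 min SAH1 averaged 183 ± 42.8 CPM and CYS4 189 ± 19.4 CPM in 25xGFA1 (SD, n = 4).

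None of the 8 genes of reductant supply, removal of the PAP by-product and siroheme precursors was called by edgeR or DESeq2 in WT at 25 to 30 min against 0 min, and 2 had an unadjusted p under 0.05.

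Between the strains after copper, 23.9% of all genes were called. Of 9 tested genes for other sulfur sources, 1 was called lower and 1 higher in 25xGFA1. Called lower were 1 of 11 synthesis genes, 1 of 8 reductant genes and 1 of 5 glutathione genes, and 0 of 6 regulators were called. No list had a larger share called than all genes. Lower in 25xGFA1 were MUP3 (-0.59, SE 0.15, adjusted p = 0.00522) and ECM38, a gamma-glutamyltransferase that degrades glutathione (-0.54, SE 0.12, adjusted p = 0.00132). Also lower were ZWF1, the glucose-6-phosphate dehydrogenase that supplies NADPH (-0.49, SE 0.17, adjusted p = 0.0336), and MET6, the methionine synthase (-0.46, SE 0.16, adjusted p = 0.0401). SAM4, a homocysteine methyltransferase that uses S-adenosylmethionine, was higher (0.48, SE 0.11, adjusted p = 0.00182). None of these 5 was called without 25xGFA1 culture 1, with adjusted p-values of 0.052 for ECM38, 0.134 for MUP3, 0.203 for SAM4, 0.299 for MET6 and 0.356 for ZWF1. Without 25xGFA1 culture 2, MUP3 (adjusted p = 0.112), ZWF1 (adjusted p = 0.192) and MET6 (adjusted p = 0.285) were not called. Without WT culture 2, MUP3 (adjusted p = 0.335), MET6 (adjusted p = 0.463) and ZWF1 (adjusted p = 0.0773) were not called.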

How the data were processed

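The 37 libraries were analysed from the deposited table of raw counts, in which each column is a library and each value a whole number of reads assigned to a gene. Per the submitters' processing notes, STAR (2.7.10a) and HTSeq (2.0.2) were used, with SAMtools (1.10), FastQC (0.11.9) and build R64; which annotation release and strand setting were used is not given in the sources used here. Labels mention no molecular identifiers, so intervals cover counting error only. HTSeq's 5 summary entries (reads in no gene were 34.8% to 50.6% of a library) stayed out of library sizes. Of 6464 genes, 6461 matched the reference annotation.

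One edgeR 4.0.16 fit (R 4.3.3) covered 18 groups of strain and time with 19 residual degrees of freedom. It used TMM scaling, filterByExpr (minimum count 10) and quasi-likelihood F tests. The biological coefficient of variation was 19.6%. Neighbouring times were joined into windows. Adjusted p-values are from edgeR unless DESeq2 (1.42.0) is named. Alternatives were DESeq2, its size factors in edgeR, no filter, a minimum count of 30, culture as a block, only the libraries of the strain compared, and leaving out each culture or 0 min library.

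A replicate number was taken to mark 1 culture sampled repeatedly, as the labels' growth protocol describes. Differences between replicates 2 and 1 correlated between times with a median of 0.073 in 25xGFA1 and 0.095 in WT (36 pairs of times each). The correlations ran from -0.171 to 0.208 in 25xGFA1, with 14 pairs over 0.1. In WT they ran from -0.394 to 0.568, with 18 pairs over 0.1. Named genes were all members, up to 6 called genes of each list in a comparison, the 5 genes most like the members, and marker genes. SAH1 and CYS4 were named outside this rule, picked out after the values were seen. The members, lists and tests were chosen with earlier results of these data known. The fit was also run on simulated counts with independent libraries, the same spread for every gene and no library standing apart. That run therefore does not cover shared cultures or the WT 0 min library that stood apart. Promoters are the 500 bases before the start codon in the R64 reference.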

Additional observations from a re-analysis of the deposited data

How the results depend on the processing

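Counts of members called, of 8, were recomputed under 15 other settings. In WT at 10 to 20 min against 0 min DESeq2 called 1 (MET14, adjusted p = 0.0397), against 0. In WT at 25 to 30 min against 0 min the fit on WT libraries alone called 0, against 4. In WT at 25 to 30 min against 5 min culture as a block called 1, against 0, and in WT at 45 to 60 min against 25 to 30 min a minimum count of 30 and the block each called 2, against 0. In 25xGFA1, the fit on its own libraries called 3 at 25 to 30 min and 2 at 45 to 60 min against 0 min, and 2 at 25 to 30 min against 5 min, against 0 each. Between the strains after copper a minimum count of 30 called 1, against 2, since SUL2 was then not tested. Beyond these and the calls given above, pairing by culture changed no call of a member, and MET16 at 0 min, -0.34 between the strains, had 0.080 under the block.

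With 1 culture or 0 min library left out, the count ran from 0 to 2 in WT at 10 to 20 min, 0 to 5 at 25 to 30 min and 0 to 4 at 45 to 60 min against 0 min, 0 to 1 at 25 to 30 min against 5 min, and 0 to 3 at 45 to 60 min against 25 to 30 min. It ran from 0 to 1 in 25xGFA1 at 25 to 30 and at 45 to 60 min against 0 min, 0 to 2 at 25 to 30 min against 5 min, 0 to 1 at 45 to 60 min against 25 to 30 min, and 0 to 2 between the strains after copper. It was 0 throughout in the other 4 comparisons. The number of all genes called also moved among these fits in every comparison, as given for some of them below. Most of these fits left 1 library in some groups. Changes of sign were looked for only in a chosen set of genes and comparisons. That set held no value of MET8, and of MET3 only that between the strains after copper. Log2 values that changed sign among these fits were MET14 in WT at 45 to 60 min against 25 to 30 min (-1.23 to 0.84), and between the strains MET10 after copper (-0.0045 to 0.30), MET16 at 0 min (-0.55 to 0.10), and the change from 0 min of SUL2 (-0.32 to 0.58) and MET16 (-0.65 to 0.16); none was called in the fit reported, and MET14 was called lower without WT culture 1 (adjusted p = 0.00787). MET3 was called between the strains without WT culture 2 (1.52, adjusted p = 0.0369).

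Over all genes, the fit on the libraries of 1 strain called 233, 216 and 14 genes in WT at 10 to 20, 25 to 30 and 45 to 60 min against 0 min, against 679, 510 and 79, and 152, 1285 and 154 in 25xGFA1, against 3, 107 and 9. For 25 to 30 min against 5 min and 45 to 60 min against 25 to 30 min it called 4 and 271 in WT, against 50 and 520, and 1080 and 787 in 25xGFA1, against 38 and 30. DESeq2 called 15, 170, 22, 119 and 52 in 25xGFA1 in these 5 comparisons, and the block 29, 349, 29, 241 and 79. The block called 101 in WT at 25 to 30 min against 5 min. Without 25xGFA1 culture 1 or 2, 326 or 602 genes were called between the strains after copper, against 1194. The WT count at 45 to 60 min was 824 without the 0 min library of replicate 1, and the count between the strains at 0 min was 432 with the block, against 172. The cause was not tested. Depth limited SUL1, MET3 and MET8, whose medians were 3, 6 and 5 counts per library.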
